A study of Homo sapiens with 40 samples.

Results

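The 10 genes described here are 3 Notch receptors (NOTCH1, NOTCH2, NOTCH3), 3 canonical ligands (JAG1, JAG2, DLL1), 3 target genes (HES1, HEY1, NRARP) and the non-canonical ligand DNER. They were taken by a list of symbols from the 60708 genes counted, and all 10 were found. RNA was sequenced from 24 libraries in 8 groups of 3, each labelled as biological replicates. MI-spheres (MCF-10A, an immortalized human mammary epithelial cell line) and MII-spheres (MCF-10AneoT, its HRAS-transformed derivative) were grown in 3D on ultra-low attachment plates, unstimulated (Ctrl) or stimulated with TGFβ1 at 2.5 ng/ml for 16 h. MDA-MB-231 cells, a triple-negative breast cancer line, were grown as monolayers in medium with serum and without added TGFβ1. They were labelled WT, SLUG KO, Csi (control scramble siRNA, genotype WT) or siSMAD2/3/4 (siRNAs against SMAD2, SMAD3 and SMAD4, genotype WT). The SLUG KO cells came from Cas9 protein and a guide RNA against exon 1 of SNAI2, the gene of SLUG, followed by expansion of single-cell clones, so that clone and genotype cannot be told apart.

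Notch is a receptor that acts between touching cells. A Jagged or Delta-like ligand on one cell pulls on a Notch receptor on its neighbour, ADAM proteases and γ-secretase then cut the receptor, and its intracellular domain enters the nucleus, binds the DNA-binding protein RBPJ and switches on target genes. The best known targets are the HES and HEY repressors, and NRARP, which feeds back on the receptor's intracellular domain. In the mammary epithelium the pathway is known for its part in luminal and basal cell fate, and JAG1 is a known target gene of TGFβ signaling in epithelial cells.

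The bases before the start sites of HES1 and NRARP are shown because both target genes were lower after TGFβ in both lines, and because HES1 carries a pair of RBPJ core motifs there. Both windows are from RefSeq (GRCh38.p14), 250 bases long, written 5′ to 3′ on the strand of the gene, and end at the base before the annotated start. Capitals mark TGGGAA, the core of the RBPJ binding motif, searched on both strands.
HES1, chr3:194135898-194136147, plus strand: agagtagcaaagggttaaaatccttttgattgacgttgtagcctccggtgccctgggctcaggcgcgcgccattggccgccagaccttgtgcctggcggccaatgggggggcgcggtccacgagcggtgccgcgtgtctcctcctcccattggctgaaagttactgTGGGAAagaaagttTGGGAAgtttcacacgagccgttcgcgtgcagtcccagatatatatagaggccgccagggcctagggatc
NRARP, chr9:137302272-137302521, minus strand: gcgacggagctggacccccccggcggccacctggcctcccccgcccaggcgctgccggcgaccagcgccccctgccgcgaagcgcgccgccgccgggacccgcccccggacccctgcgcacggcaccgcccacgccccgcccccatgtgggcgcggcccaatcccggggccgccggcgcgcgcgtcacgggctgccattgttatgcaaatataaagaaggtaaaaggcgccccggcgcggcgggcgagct
In HES1 the motif began 84 and 70 bases before the start site, both times on the strand of the gene. Of 35116 promoter windows in the table, each with 250 bases before and 50 after the start, 24% held the motif at least once and 3.8% held it 2 or more times. Of the 10 genes, 7 had a window in the table, and HES1 was the 1 with a match. The absence of these letters in the other 6 windows describes only these windows.

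In the annotation used for counting (GENCODE on GRCh38), the receptor genes lie at chr9:136494433-136546048 (NOTCH1), chr1:119911553-120100779 (NOTCH2) and chr19:15159038-15200995 (NOTCH3). The ligand genes lie at chr20:10637684-10673999 (JAG1), chr14:105140982-105168824 (JAG2) and chr6:170282206-170306565 (DLL1), and DNER lies at chr2:229357629-229714555. The target genes lie at chr3:194136148-194138732 (HES1), chr8:79762371-79767857 (HEY1) and chr9:137299631-137302271 (NRARP). HES1 is on the plus strand and the other 9 are on the minus strand. Counting ignored the strand and left out fragments that fell on exons of more than 1 gene. Other genes share 9.69% of the exon bases of DLL1 (with FAM120B, on the opposite strand), 7.33% of JAG2, 3.29% of JAG1 and 2.76% of NRARP, so that these 4 levels are uncertain to that extent. The first exons of NOTCH2 are nearly identical to those of the NOTCH2NL genes, and fragments that fit both could not be assigned to either.

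Total counts per library ranged from 14124688 to 38406952. CDH1 (E-cadherin), KRT5 and VIM (vimentin) separated the spheres from MDA-MB-231 cells as labelled. CDH1 was at 508 to 712 CPM, the count scaled to library size, in the sphere libraries and KRT5 at 17.8 to 561 CPM. In WT and SLUG KO cells KRT5 had no count, whereas VIM reached 608 to 983 CPM. In Csi and siSMAD2/3/4, KRT5 averaged 0.196 and 0.145 CPM, CDH1 17.9 and 14.5 CPM and VIM 1014 and 984 CPM. ITGB4, another epithelial marker, did not separate them (443 to 499 CPM on average in sphere groups, 376 in WT and 412 in Csi). PTPRC, the common leukocyte marker, was at most 0.581 CPM in any library. CD14, another immune marker, averaged 94.2 to 189 CPM in the sphere groups. HRAS was 5.45-fold higher in unstimulated MII- than MI-spheres. One library, WT replicate 2, stood apart from the other WT libraries. Its log2 CPM correlated with theirs at r = 0.957 and 0.952, against 0.989 between the other 2 and 0.984 to 0.994 within the other groups, so that results on SLUG KO are given with and without it.

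Levels of the 10 genes were compared across groups and between genes as CPM per kb of exon, scaled over all 24 libraries. HES1 was the highest of the 10 in every sphere group, at 76.4 ± 1.37 (SD, n = 3) CPM per kb in MI Ctrl and 54.2 ± 1.28 in MII TGFβ. In MDA-MB-231 cells its level was between 4.23 ± 0.215 (SLUG KO) and 10.0 ± 0.826 (Csi), and NOTCH2 was the highest there, at 27.8 ± 0.816 (siSMAD2/3/4) to 34.3 ± 1.48 (SLUG KO). These differences are between cell lines that also differ in culture and, for the siRNA libraries, in sequencing batch, and no test was made of them.

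Among the receptors, NOTCH1 had similar levels in most groups, and each group overlapped the next in order from MII Ctrl (11.04 ± 1.04) down to siSMAD2/3/4 (8.02 ± 0.370). SLUG KO had the lowest mean (5.18 ± 0.553). The WT libraries spread widely (8.11 ± 7.24), at 3.855, 16.47 and 4.009 CPM per kb. WT replicates 1 and 3 thus lay below every SLUG KO library (4.728 to 5.799). For NOTCH2 the 4 MDA-MB-231 groups were above 27 CPM per kb and the sphere groups were between 9.57 ± 0.382 (MII Ctrl) and 11.1 ± 0.715 (MI TGFβ). NOTCH3 was higher in spheres. It was highest in MI TGFβ (19.5 ± 2.91), followed by MI Ctrl (15.4 ± 0.366), MII TGFβ (9.54 ± 0.214) and MII Ctrl (8.72 ± 1.05), where the last 2 overlapped. The MI groups did not overlap on this scale but did in CPM scaled within the 12 sphere libraries. It was at 0.0573 ± 0.0199 to 0.499 ± 0.0529 CPM per kb in the MDA-MB-231 groups.

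JAG1 was the most abundant ligand in every group. It was highest in MI TGFβ (49.0 ± 1.27), WT (24.9 ± 1.10) and MII TGFβ (24.8 ± 0.670) overlapped, and MII Ctrl was lowest (9.17 ± 0.193). JAG2 was at 1.59 ± 0.158 (MII Ctrl) to 4.02 ± 0.260 (siSMAD2/3/4), and the 5 lowest groups overlapped in order. DLL1 was under 0.4 CPM per kb in every group, with MI Ctrl highest (0.397 ± 0.113) and SLUG KO lowest (0.0525 ± 0.00854). DNER was highest in MI Ctrl (1.69 ± 0.0729) and lowest in MII Ctrl (0.359 ± 0.101), which overlapped siSMAD2/3/4 (0.376 ± 0.0148).

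Among the target genes, the 4 sphere groups of HES1 did not overlap their neighbours in order. NRARP was highest in MII Ctrl (4.03 ± 0.327), then MII TGFβ (1.68 ± 0.268) and MI Ctrl (1.23 ± 0.144), where MI Ctrl overlapped Csi (1.05 ± 0.143). HEY1 was low throughout, from 0.561 ± 0.135 in MII TGFβ to 0.00760 ± 0.00726 in SLUG KO, with overlaps between most neighbours.

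**Figure D1:**
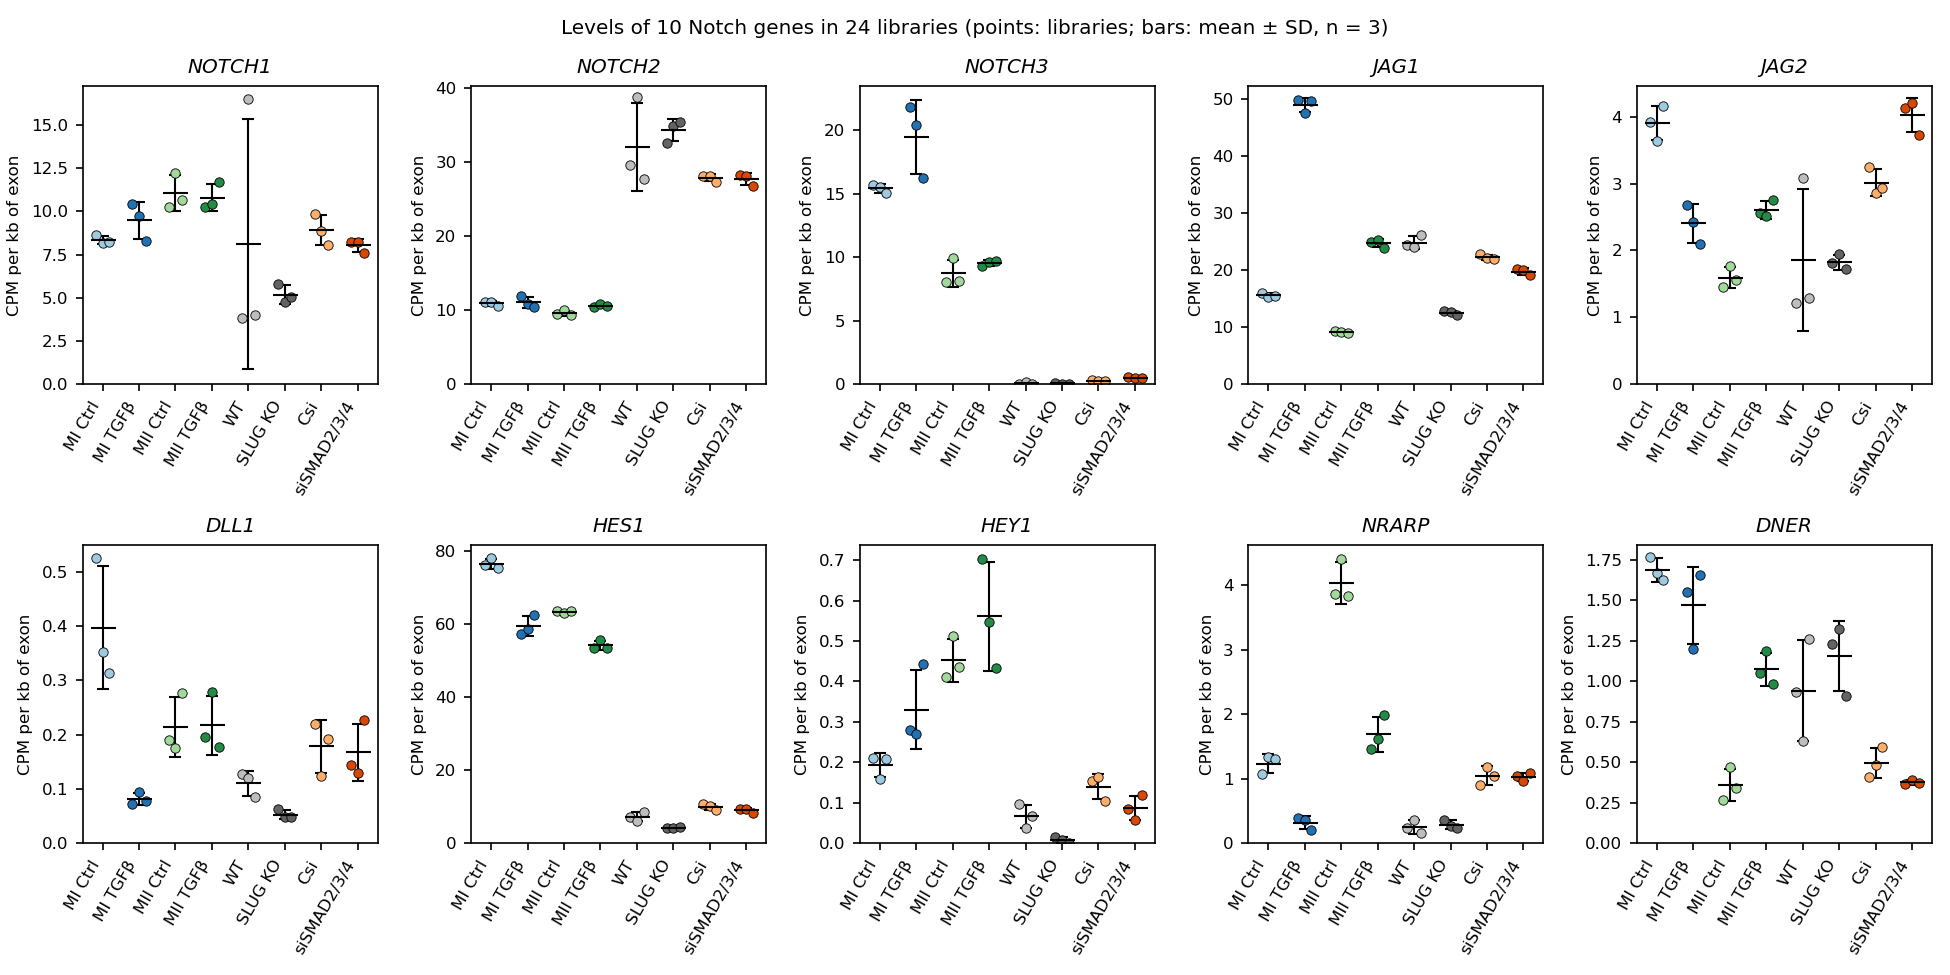
Level of each of the 10 Notch genes (CPM per kb of exon, linear axes from 0, scaled over all 24 libraries) in the 8 groups, with 1 point per library and bars for the mean ± SD (n = 3). HES1 and NOTCH3 were high in spheres and low in MDA-MB-231 cells, NOTCH2 the reverse, and NOTCH1 of WT replicate 2 stood above the other 2 WT libraries.

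The first comparison asked which Notch genes TGFβ changed in MI-spheres. JAG1 rose and its relative JAG2 fell, as did DLL1 and the targets HES1 and NRARP, whereas NOTCH1 and NOTCH2 did not pass the test. In all, 3 of the 10 genes were higher and 4 lower at an adjusted p under 0.05 (edgeR's quasi-likelihood test), against 28.7% of all 16863 genes tested that were higher and 27.4% that were lower. Lists of cell type markers moved as well, the summed level of 8 basal or epithelial markers from 2457 to 2507 CPM in Ctrl to 4323 to 4477 CPM, and that of 5 mesenchymal markers from 55.1 to 60.6 CPM to 246 to 281 CPM. KRT17 was the largest part of the basal or epithelial sum, at 1248 CPM on average in Ctrl and 2317 CPM after TGFβ. KRT5, KRT6A, KRT14, TP63 and EPCAM also rose, whereas CDH1 and ITGB4 did not pass. The mesenchymal sum was mostly FN1 (fibronectin), at 53.9 CPM on average in Ctrl and 245 CPM after TGFβ. VIM, CDH2 and SPARC also rose, whereas ZEB1 did not pass. The summed level of 5 luminal markers went from 122 to 126 CPM in Ctrl to 64.5 to 70.7 CPM. Of these FOXA1 and ESR1 fell, KRT19 rose and GATA3 did not pass. The part of these lists in the responses was not tested. In bulk RNA, fewer cells of one state and less RNA per cell cannot be told apart, here and in all comparisons.

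JAG1, a Jagged-family ligand of the receptors, was at 144, 140 and 141 CPM in Ctrl and at 434, 419 and 425 CPM after TGFβ (log2 fold change 1.57 ± 0.0498 (SE), adjusted p = 2.82e-16). All stimulated libraries were above all unstimulated ones, by 2.96-fold on average. JAG2 went from 24.4, 22.8 and 25.9 CPM to 16.1, 14.7 and 12.4 CPM (log2 fold change -0.79 ± 0.0944, adjusted p = 4.80e-07). The 2 Jagged ligands therefore changed in opposite directions in the same libraries, with no overlap between the groups for either. DLL1, a Delta-like ligand, had few counts (52, 28 and 23 in Ctrl, 5, 8 and 7 after TGFβ), which correspond to 1.95, 1.32 and 1.16 CPM and to 0.257, 0.339 and 0.275 CPM. Its log2 fold change was -2.36 ± 0.382 (adjusted p = 2.41e-05).

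HES1, a transcriptional repressor, was at 152, 157 and 151 CPM in Ctrl and at 110.4, 114.6 and 118.8 CPM after TGFβ (log2 fold change -0.44 ± 0.0513, adjusted p = 3.09e-07). The change was small against its level, but the groups did not overlap. NRARP fell from 2.74, 3.43 and 3.34 CPM to 0.977, 0.891 and 0.510 CPM (log2 fold change -2.03 ± 0.263, adjusted p = 1.34e-06). HEY1 passed in the other direction, from 1.13, 0.846 and 1.11 CPM to 1.44, 1.40 and 2.24 CPM (log2 fold change 0.70 ± 0.288, adjusted p = 0.0442), and its call was not stable. It held under 5 of 12 alternatives, with an adjusted p of 0.0219 to 0.269, and without MI TGFβ replicate 3 its log2 fold change was 0.45 (adjusted p = 0.269).

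NOTCH3 was at 144, 143 and 138 CPM in Ctrl and at 192, 182 and 141 CPM after TGFβ (log2 fold change 0.25 ± 0.0795, adjusted p = 0.0102), with an overlap through replicate 3. Without MI TGFβ replicate 1 it did not pass (log2 fold change 0.18, adjusted p = 0.0800). NOTCH1 (log2 fold change 0.10 ± 0.0702, adjusted p = 0.232) was at 104.8, 100.2 and 100.6 CPM in Ctrl and at 122, 115 and 95.8 CPM after TGFβ, and passed only without replicate 3 (0.21, adjusted p = 2.45e-04). Stimulated MI-sphere replicate 3 was the lowest of its group for NOTCH1, NOTCH2, NOTCH3, JAG2 and NRARP and the highest for HES1, HEY1 and DNER. NOTCH2 had a log2 fold change of -0.06 (95% interval -0.17 to 0.05, adjusted p = 0.340). DNER was at 6.75, 6.395 and 6.22 CPM in Ctrl and at 5.71, 4.45 and 6.00 CPM after TGFβ (log2 fold change -0.29 ± 0.137, adjusted p = 0.0809), and without replicate 3 the value was -0.37 (adjusted p = 0.0327).

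The same stimulation of MII-spheres raised JAG1, JAG2, DNER and, slightly, NOTCH2, and lowered HES1 and NRARP. Thus 4 of the 10 genes were higher and 2 lower, against 29.9% and 27.6% of the 16396 genes tested. The summed level of the 8 basal or epithelial markers was 1516 to 1567 CPM in Ctrl and 2820 to 2965 CPM after TGFβ. That of the 5 mesenchymal markers was 138 to 144 CPM and 160.5 to 174 CPM, and that of 5 fibroblast markers 8.84 to 10.4 CPM and 3.93 to 4.96 CPM. Of the basal or epithelial markers KRT17 rose (324 and 1218 CPM on average), as did KRT5, KRT14, KRT6A, TP63, CDH1 and EPCAM, whereas ITGB4 did not pass. FN1 held most of the mesenchymal sum and did not pass (131.6 CPM on average in Ctrl and 143.6 CPM after TGFβ, adjusted p = 0.0610). VIM (2.70 and 7.90 CPM) and CDH2 (4.13 and 10.2 CPM) rose, and ZEB1 did not pass. Of the fibroblast markers COL1A1 fell (9.67 and 3.95 CPM). The summed level of 5 luminal markers was 117 to 124 CPM in Ctrl and 118 to 122 CPM after TGFβ. Of these GATA3 fell, and KRT19 and PGR rose. The part of these lists in the changes was not tested. JAG1 went from 85.9, 83.8 and 82.0 CPM to 228, 231 and 220.4 CPM (log2 fold change 1.40 ± 0.0413, adjusted p = 1.15e-33). As in MI-spheres, the stimulated libraries were all above the unstimulated ones, at a lower level of the gene. JAG2 went up from 9.20, 11.1 and 9.76 CPM to 16.0, 15.8 and 17.4 CPM (log2 fold change 0.66 ± 0.102, adjusted p = 2.31e-07). Its stimulated level was 14.4 ± 1.89 CPM (SD, n = 3) in MI- and 16.4 ± 0.907 CPM in MII-spheres, reached from opposite sides and not tested against each other. DLL1 was at 0.718, 0.657 and 1.04 CPM in Ctrl and at 0.728, 1.05 and 0.671 CPM after TGFβ, with overlap (log2 fold change 0.02, 95% interval -0.73 to 0.76, adjusted p = 0.975).

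DNER, a transmembrane protein with EGF repeats described as a non-canonical ligand, rose from 1.04, 1.81 and 1.31 CPM to 4.04, 4.58 and 3.83 CPM in MII-spheres (log2 fold change 1.47 ± 0.226, adjusted p = 2.00e-07), without overlap. HES1 fell from 128.97, 127.68 and 128.51 CPM to 107.6, 112.5 and 108.8 CPM (log2 fold change -0.26 ± 0.0429, adjusted p = 8.24e-07). NRARP fell from 10.1, 11.4 and 9.93 CPM to 3.77, 4.19 and 5.17 CPM (log2 fold change -1.30 ± 0.139, adjusted p = 1.34e-11). Both targets were thus lower in every stimulated library than in every unstimulated one, in either line. HEY1 was at 2.22, 2.76 and 2.35 CPM in Ctrl and 3.77, 2.94 and 2.35 CPM after TGFβ and did not pass (log2 fold change 0.25, 95% interval -0.18 to 0.68, adjusted p = 0.332).

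The receptors moved little in MII-spheres. NOTCH2 went from 185, 196 and 182 CPM to 203, 213 and 208 CPM (log2 fold change 0.11 ± 0.0390, adjusted p = 0.0142), and did not pass without MII Ctrl replicate 3 (0.09, adjusted p = 0.0848) or with at least 10 counts in every library (0.07, adjusted p = 0.102). NOTCH1 (log2 fold change -0.08, 95% interval -0.17 to 0.02, adjusted p = 0.185) and NOTCH3 (0.08, -0.03 to 0.19, adjusted p = 0.197) overlapped between the groups. NOTCH1 passed without MII TGFβ replicate 3 (-0.13, adjusted p = 0.0393) and with at least 10 counts in every library (-0.11, adjusted p = 0.0410), and NOTCH3 without MII Ctrl replicate 2 (0.20, adjusted p = 0.00159).

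Whether the response differed between the lines was tested with an interaction term over the 12 sphere libraries, where a positive value means a higher response in MII. The response differed for 4 of the 10 genes, all with a higher value in MII-spheres, against 12.6% of 18591 genes with a higher and 9.75% with a lower value. The difference was 1.46 ± 0.138 on the log2 scale for JAG2 (adjusted p = 7.81e-11), 2.38 ± 0.560 for DLL1 (adjusted p = 0.00135) and 1.76 ± 0.253 for DNER (adjusted p = 8.06e-07). These 3 calls held under every alternative tried. For HES1 the difference was 0.19 ± 0.0662 (adjusted p = 0.0329), a smaller fall in MII-spheres, and it passed under 4 of 17 alternatives (adjusted p of 0.0179 to 0.284). Leaving out any library but MI TGFβ replicate 3 ended the call. For JAG1 the difference was -0.16 ± 0.0629 (adjusted p = 0.0642), for NOTCH2 0.19 ± 0.0694 (adjusted p = 0.0503) and for NRARP 0.74 ± 0.286 (adjusted p = 0.0581), so that a difference in response was not shown for them. JAG1 passed under 6 of 17 alternatives, NOTCH2 under 3 and NRARP under 1. Without MI TGFβ replicate 3, 7 of the 10 genes passed instead of 4, with NOTCH1 (-0.30), NOTCH3 (-0.32) and JAG1 (-0.19) added. Over all genes, 4750 of 19330 passed in that fit (2415 higher and 2335 lower), against 4156 of 18591 with all libraries.

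In unstimulated spheres all 10 genes differed between the lines, and in each case the libraries of MII did not overlap those of MI. Of the 64 other pathway genes described below 41 did not overlap either, and this was not counted over all genes. NOTCH1 and the targets HEY1 and NRARP were higher in MII-spheres and the other 7 lower, against 31.7% of 17862 genes higher and 32.5% lower. This comparison shares the unstimulated libraries with the comparisons of TGFβ. Marker lists differed too: the summed level in MII against MI was 1516 to 1567 against 2457 to 2507 CPM for the 8 basal or epithelial markers, 138 to 144 against 55.1 to 60.6 CPM for the 5 mesenchymal, 187 to 191 against 95.6 to 103.3 CPM for 4 immune and 8.84 to 10.4 against 18.8 to 21.0 CPM for 5 fibroblast markers. TP63, a basal cell transcription factor, was at 0.611 CPM on average in MII and 49.9 CPM in MI. KRT17 (324 against 1248 CPM), KRT5 and KRT6A were also lower in MII. KRT14 (8.28 against 1.52 CPM), EPCAM (184 against 60.5 CPM) and CDH1 (556 against 513 CPM) were higher. The mesenchymal sum was mostly FN1 (132 against 53.9 CPM), and VIM, ZEB1 and CDH2 were higher too. The immune sum was mostly CD14. Of the fibroblast markers DCN and LUM were lower and COL1A1 higher. The part of these lists in the Notch genes was not tested. NRARP was at 10.1, 11.4 and 9.93 CPM in MII and at 2.74, 3.43 and 3.34 CPM in MI (log2 fold change 1.75 ± 0.134, adjusted p = 5.36e-17). HEY1 was at 2.22, 2.76 and 2.35 CPM against 1.13, 0.846 and 1.11 CPM (log2 fold change 1.26 ± 0.257, adjusted p = 2.56e-05). HES1, at 128.97, 127.68 and 128.51 CPM against 152, 157 and 151 CPM, went the other way (log2 fold change -0.26 ± 0.0389, adjusted p = 6.07e-08), so that the 3 targets did not move together.

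All 4 ligands were lower in unstimulated MII-spheres. DNER had the largest difference of the 10 genes, 1.04, 1.81 and 1.31 CPM against 6.75, 6.395 and 6.22 CPM (log2 fold change -2.14 ± 0.184, adjusted p = 3.43e-15). JAG2 was lower by a log2 fold change of -1.26 ± 0.0854 (adjusted p = 3.81e-19) and JAG1 by -0.76 ± 0.0418 (adjusted p = 6.62e-23). After stimulation, JAG1 in MII-spheres (226 ± 5.23 CPM) was above its unstimulated level in MI-spheres (142 ± 2.54 CPM). DLL1 was lower by -0.93 ± 0.318 (adjusted p = 0.00941), and did not pass without MI Ctrl replicate 1 (-0.66, adjusted p = 0.137) or MII Ctrl replicate 2 (-0.76, adjusted p = 0.0700), nor with DESeq2 (adjusted p = 0.0779). Among the receptors, NOTCH3 was at 74.8, 91.8 and 75.5 CPM against 144, 143 and 138 CPM (log2 fold change -0.80 ± 0.0494, adjusted p = 8.40e-21). NOTCH1 was higher (0.42 ± 0.0461, adjusted p = 1.06e-11) and NOTCH2 slightly lower (-0.18 ± 0.0381, adjusted p = 5.80e-05).

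**Figure D2:**
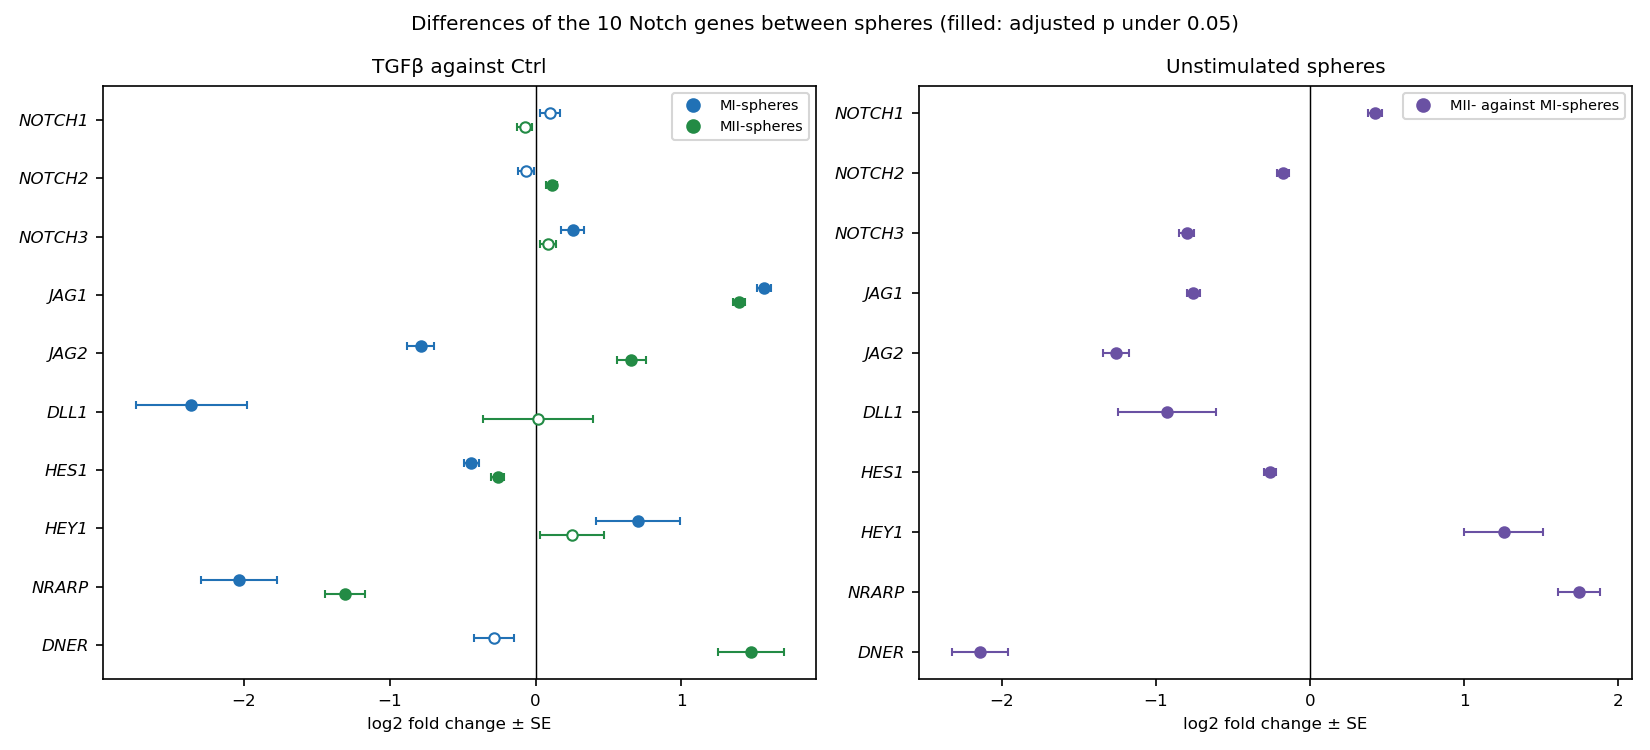
Log2 fold changes ± SE of the 10 Notch genes for TGFβ against Ctrl in MI- and MII-spheres (left) and for unstimulated MII- against MI-spheres (right), from edgeR with 3 libraries per group, with filled points at an adjusted p under 0.05. JAG1 rose and HES1 and NRARP fell in both lines, JAG2 changed in opposite directions, and all 10 genes differed between the unstimulated lines.

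The rest of the pathway was followed in 64 other genes listed by their role. After TGFβ, 15 of the 52 tested in MI-spheres were higher and 21 lower, and 17 of 52 were higher and 18 lower in MII-spheres, against 28.7% of all genes higher and 27.4% lower in MI- and 29.9% and 27.6% in MII-spheres. Their median log2 fold changes were -0.04 and -0.09 beside -0.02 over all genes in either line. The median absolute log2 fold change was 0.27 and 0.24, beside 0.34 and 0.31 over all genes. NEURL1B and DLL4 were named in both lines. NEURL1B, a ubiquitin ligase of the Neuralized family that acts on Notch ligands, rose from 5.32, 3.53 and 4.95 CPM to 22.1, 22.2 and 21.8 CPM in MI-spheres (log2 fold change 2.23 ± 0.117, adjusted p = 1.13e-12). In MII-spheres it rose from 1.76, 1.25 and 0.927 CPM to 4.37, 3.14 and 4.43 CPM (1.59 ± 0.242, adjusted p = 1.65e-07). DLL4, a Delta-like ligand best known from endothelium, fell from 4.99, 5.08 and 4.55 CPM to 0.668, 0.891 and 0.667 CPM in MI-spheres (-2.73 ± 0.216, adjusted p = 9.67e-10). In MII-spheres it fell from 2.22, 1.97 and 1.42 CPM to 0.596, 0.262 and 0.134 CPM (-2.51 ± 0.399, adjusted p = 4.37e-07). The summed level of 4 endothelial markers (PECAM1, CDH5, VWF and KDR) went from 30.6 to 33.7 CPM in MI Ctrl to 12.2 to 13.7 CPM in MI TGFβ, and from 113 to 115 CPM in MII Ctrl to 95.2 to 106.2 CPM in MII TGFβ. In MI-spheres the difference in the sum lay in CDH5, at 20.8 to 22.3 CPM in Ctrl and 2.00 to 2.12 CPM after TGFβ. PECAM1 was at 9.54 ± 0.948 and 9.78 ± 1.02 CPM and did not pass, nor did VWF (1.295 and 1.119 CPM on average), and KDR was at most 0.112 CPM in any MI library. Of the 4 markers 3 reached 1 CPM in MI- and 2 in MII-spheres, and their part in the fall of DLL4 was not tested.

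Of the 11 nuclear co-repressors 3 were higher and 6 lower in MI-spheres, and 4 higher and 6 lower in MII-spheres. Of the 3 genes tested for ligand ubiquitination and endocytosis, NEURL1B among them, 2 were higher and 1 lower in each line. TLE2, of the Groucho family, fell in MI-spheres from 4.16, 4.75 and 4.95 CPM to 1.85, 2.12 and 2.00 CPM (log2 fold change -1.23 ± 0.178, adjusted p = 6.04e-06). Of the genes for receptor cleavage 2 of 3 were higher and none lower in each line, and of the γ-secretase subunits 2 of 6 were higher and 2 lower in MI- and 3 higher and 0 lower in MII-spheres. Receptor turnover had 4 genes lower in each line, of 8 and 9 tested, with 0 higher in MI- and 1 higher in MII-spheres. HES4, of the HES family, fell in MI-spheres (log2 fold change -0.63, adjusted p = 0.00101) and rose in MII-spheres (0.66, adjusted p = 7.67e-06), with a difference in response of 1.30 ± 0.198 (adjusted p = 2.21e-06). In the interaction, 9 of 55 genes had a higher and 4 a lower response in MII-spheres, against 12.6% and 9.75% of all genes.

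Between the unstimulated lines 21 of 54 other pathway genes were higher in MII-spheres and 20 lower, against 31.7% and 32.5% of all genes. DTX1, an E3 ubiquitin ligase of the Deltex family, was at 20.2, 19.9 and 19.6 CPM in MII and 0.187, 0.188 and 0.303 CPM in MI (log2 fold change 6.45 ± 0.187, adjusted p = 1.34e-35). The co-repressors TLE1 (2.57 ± 0.0499, adjusted p = 6.51e-44) and TLE2 (3.13 ± 0.0888, adjusted p = 4.55e-36) were higher, and TLE3 (-1.52 ± 0.0931, adjusted p = 6.39e-21), HES2 (-1.80 ± 0.0629, adjusted p = 8.24e-32) and NEURL1B (-1.85 ± 0.220, adjusted p = 1.50e-10) lower. Of the receptor glycosylation genes 2 of 5 were higher and 2 lower, and all 3 genes for receptor cleavage were lower.

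**Figure D3:**
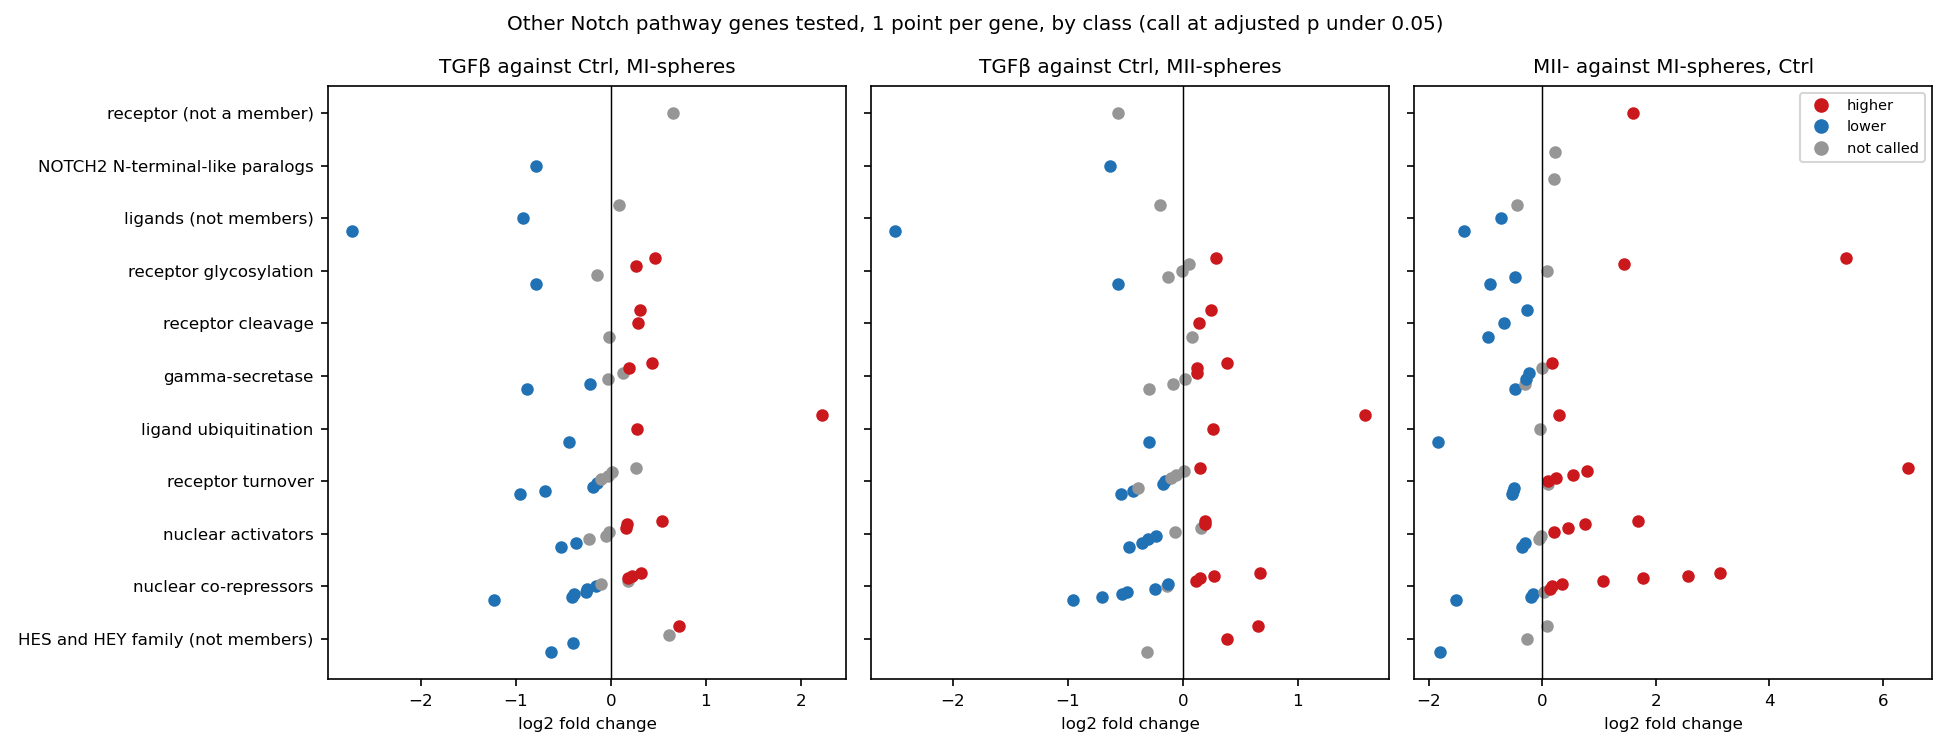
Log2 fold change of each other Notch pathway gene tested, by class, for TGFβ against Ctrl in MI-spheres (52 genes) and MII-spheres (52 genes) and for unstimulated MII- against MI-spheres (54 genes), colored by the call at an adjusted p under 0.05. NEURL1B (ligand ubiquitination) and DLL4 (ligands) lie farthest from 0 after TGFβ, and DTX1 (receptor turnover) between the lines.

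SLUG (SNAI2) is a zinc finger repressor that TGFβ induces in many epithelial cells, and the question was which Notch genes differ in MDA-MB-231 cells without it. JAG1 was lower in the libraries labelled SLUG KO and was the 1 of 8 Notch genes tested that passed, against 1.45% of 17428 genes higher and 1.89% lower. In counts simulated with the spread of these 6 libraries, the test recovered 3 of 100 genes given an absolute log2 fold change of 1. At 2, it recovered 67 of 100. Not passing here therefore does not show that a gene was unchanged. SNAI2 RNA itself was higher in the libraries labelled SLUG KO, 66.1, 61.3 and 67.2 CPM against 32.9, 22.4 and 35.2 CPM in WT (log2 fold change 1.10 ± 0.214, adjusted p = 0.0399). A small change in exon 1 need not lower the RNA, so that this count does not check the label. The summed level of 5 mesenchymal markers was 913 to 1024 CPM in these libraries and 1724 to 1822 CPM in WT. In this sum FN1 (fibronectin) was the 1 marker that passed, at 91.98 CPM on average against 826.6 CPM in WT (log2 fold change -3.17, adjusted p = 0.00182), whereas VIM (769 against 836 CPM), ZEB1, CDH2 and SPARC did not. The part of FN1 or of the list in the Notch genes was not tested.

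JAG1 was at 124.3, 124.4 and 118.9 CPM in the libraries labelled SLUG KO and at 248, 239 and 254 CPM in WT (log2 fold change -1.01 ± 0.149, adjusted p = 0.0148). The groups did not overlap, and the level was 0.496 of that in WT. The direction held in all alternatives (log2 fold change of -1.03 to -0.94), and the call in 5 of 11. It was lost when any 1 library other than WT replicate 2 was left out (adjusted p of 0.0525 to 0.170), and was firmest without WT replicate 2 (-1.02 ± 0.0818, adjusted p = 1.51e-07). HES1 was at 9.01, 8.83 and 9.61 CPM against 16.2, 13.4 and 18.2 CPM in WT, again without overlap, but missed the threshold (-0.80 ± 0.192, adjusted p = 0.0813). Without WT replicate 2 it passed (-0.90 ± 0.123, adjusted p = 4.69e-05).

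Without WT replicate 2 the sign changed for 3 other genes. NOTCH1 was at 52.6, 221 and 52.5 CPM in WT and at 75.6, 63.0 and 65.8 CPM in the libraries labelled SLUG KO. Its log2 fold change was -0.68 ± 0.556 (adjusted p = 0.542) with all libraries and 0.39 ± 0.0991 (adjusted p = 0.00724) without that library. JAG2 (8.42, 21.2 and 8.61 CPM in WT, 12.1, 13.2 and 11.5 CPM in SLUG KO) went from -0.06 ± 0.375 (adjusted p = 0.946) to 0.54 ± 0.132 (adjusted p = 0.00575), and NOTCH3, with 9 to 33 counts per library, from -0.36 to 0.62 (adjusted p = 0.776 and 0.401). Without WT replicate 2, 4 of the 10 genes passed, 2 in each direction, against 16.8% of 17909 genes higher and 14.4% lower. NOTCH2, NRARP and DNER did not pass with or without it (adjusted p of 0.656 to 0.859 with all libraries).

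DLL1 and HEY1 did not pass the low-count filter in this comparison. HEY1 had 14, 5 and 9 counts in WT and 2, 1 and 0 in the libraries labelled SLUG KO, a ratio of summed counts per total of 0.111 (95% exact interval 0.0217 to 0.360), which covers counting error only. DLL1 had 32 counts in WT and 14 in SLUG KO (ratio 0.455, 0.224 to 0.876). Of the 64 other pathway genes 50 were tested with all libraries, and 2 were lower (NEURL1B and MAML3) and 0 higher. Over all 17428 genes tested, 1.89% were lower and 1.45% higher. NEURL1B fell from 19.7, 25.7 and 20.0 CPM to 7.77, 7.52 and 6.63 CPM (log2 fold change -1.58 ± 0.199, adjusted p = 0.00870), and MAML3, a co-activator that binds the Notch intracellular domain, from 3.93, 8.78 and 4.71 CPM to 1.12, 1.46 and 0.994 CPM (-2.28 ± 0.379, adjusted p = 0.0222). Both calls were lost when any 1 SLUG KO library was left out (adjusted p of 0.0693 to 0.137).

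SMAD2, SMAD3 and SMAD4 carry the TGFβ signal to the nucleus, and their silencing asked which Notch genes depend on them in MDA-MB-231 cells without added TGFβ. The targeted genes were lower in the siSMAD2/3/4 libraries, SMAD2 at 24.05 ± 0.588 CPM against 91.2 ± 2.06 in Csi (log2 fold change -1.92, adjusted p = 2.65e-22), SMAD4 at 16.9 ± 0.978 against 55.8 ± 1.21 (-1.72, adjusted p = 1.50e-19) and SMAD3 at 166 ± 5.19 against 268 ± 8.10 (-0.69, adjusted p = 9.70e-15). Of the 10 Notch genes NOTCH3 and JAG2 were higher and JAG1 and NOTCH1 lower, against 16.3% of 17696 genes higher and 19.7% lower. The library names in the count tables place siSMAD2/3/4 replicates 1 and 2 on another flow cell than the other 4 libraries, although the batch label is the same for all 6. With flow cell as a term, the fit set siSMAD2/3/4 replicate 3 alone against the Csi libraries, so it could not check these calls. The summed level of the 8 basal or epithelial markers was 435 to 477 CPM in Csi and 593 to 643 CPM in siSMAD2/3/4, that of the 5 mesenchymal markers 3479 to 3649 and 3856 to 4091 CPM, and that of the 5 fibroblast markers 95.3 to 99.5 and 120.3 to 124.4 CPM. Of the basal or epithelial markers, ITGB4 (583 against 412 CPM on average) and KRT14 were higher than in Csi. CDH1 (14.5 against 17.9 CPM) and EPCAM (14.7 against 18.7 CPM) were lower. Of the mesenchymal markers only FN1 passed (2902 against 2439 CPM). The part of these markers in the Notch genes was not tested.

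NOTCH3 went from 2.80, 2.19 and 2.51 CPM in Csi to 5.21, 4.31 and 4.60 CPM (log2 fold change 0.92 ± 0.155, adjusted p = 1.51e-05). With flow cell as a term the log2 fold change was 0.89, from siSMAD2/3/4 replicate 3 alone. The level of NOTCH3 is low beside that in spheres. JAG2 went from 21.1, 18.4 and 18.8 CPM to 26.3, 27.1 and 24.1 CPM (0.41 ± 0.0731, adjusted p = 3.04e-05), and JAG1 from 216, 206 and 205 CPM to 186, 188 and 180 CPM (-0.18 ± 0.0401, adjusted p = 6.66e-04). In these 3 genes the groups did not overlap. The change in JAG1 was 0.884-fold. NOTCH1 went from 125.5, 111.3 and 101.5 CPM to 102.5, 103.9 and 96.4 CPM, with overlap (-0.16 ± 0.0543, adjusted p = 0.0223), and did not pass without Csi replicate 1 (-0.07, adjusted p = 0.284) or siSMAD2/3/4 replicates 1 (adjusted p = 0.0530) or 3 (adjusted p = 0.125).

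None of the 3 targets passed after SMAD silencing. HES1 was at 22.5, 21.1 and 18.8 CPM in Csi and at 19.0, 19.6 and 17.4 CPM in siSMAD2/3/4 (log2 fold change -0.15, 95% interval -0.30 to -0.0001, adjusted p = 0.131), and passed without Csi replicate 3 (-0.22, adjusted p = 0.0487). NRARP was at 2.42, 3.14 and 2.78 CPM against 2.72, 2.55 and 2.91 CPM (-0.04, -0.37 to 0.30, adjusted p = 0.898), and HEY1, with 11 to 34 counts per library, had a value of -0.68 (-1.41 to 0.04, adjusted p = 0.158). NOTCH2, DLL1 and DNER did not pass either (adjusted p of 0.156 to 0.875). Of 56 other pathway genes tested, 10 were higher and 8 lower, against 16.3% and 19.7% of all genes, with a median log2 fold change of 0.04 beside 0.00 over all genes. NEURL1B, outside the naming rule here because its change was under 1 on the log2 scale, was also lower, 17.2, 19.6 and 15.1 CPM against 28.1, 29.6 and 27.9 CPM (-0.72 ± 0.0777, adjusted p = 6.30e-09). None of the 11 co-repressors passed, and 5 of the 8 nuclear activators were higher and 1 lower.

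**Figure D4:**
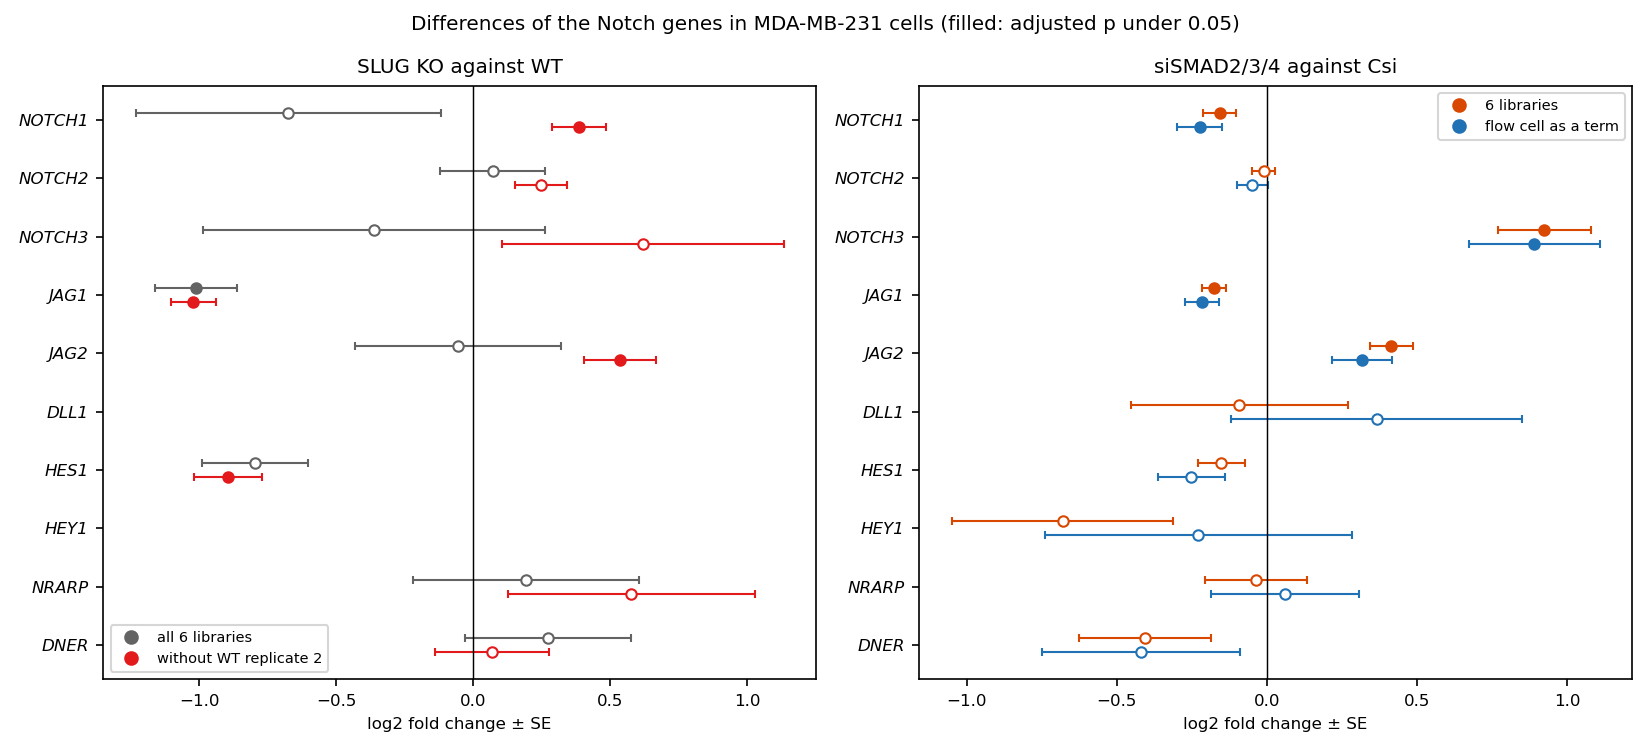
Log2 fold changes ± SE of the Notch genes in MDA-MB-231 cells, for SLUG KO against WT with all 6 libraries and without WT replicate 2 (left) and for siSMAD2/3/4 against Csi without and with flow cell as a term (right), with filled points at an adjusted p under 0.05. JAG1 lay near -1 in the libraries labelled SLUG KO in both fits, whereas NOTCH1, NOTCH3 and JAG2 changed sign without WT replicate 2. With flow cell as a term, siSMAD2/3/4 is replicate 3 alone, so the fill of those points does not check the calls.

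Side by side, JAG1 was the 1 gene of the 10 that passed in all 5 pairwise comparisons. How many of all genes passed in all 5 was not counted. In the libraries labelled SLUG KO the call of JAG1 held in 5 of 11 alternatives. The log2 fold changes of JAG1 were 1.57 and 1.40 after TGFβ in MI- and MII-spheres, and -0.76 between the unstimulated lines. They were -1.01 in the libraries labelled SLUG KO and -0.18 after SMAD silencing. NEURL1B, chosen here after its values were seen, had log2 fold changes of 2.23, 1.59, -1.85, -1.58 and -0.72 in the same order. The first 3 comparisons share unstimulated libraries, so that these values are not independent of each other.

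For the 8 genes with a median of at least 1 CPM, the genes most like them over the 24 libraries were found by Pearson's r of log2 CPM among 18634 genes, as a description. The 24 points share cell line, culture and batch within groups. HES1 was followed most closely by MAP3K5 (r = 0.994), NOTCH3 by C1RL (0.993) and ITPKC (0.991), and NOTCH2 by EIF1AD (0.990) and PAXIP1 (0.990). For these 3 genes the spheres and the MDA-MB-231 cells form 2 separate levels. The values were lower for NRARP with NR6A1 (0.947) and APBB3 (0.944), NOTCH1 with GAK (0.937) and BCR (0.934), JAG1 with ACOX2 (0.934) and CCT7 (0.897), DNER with GSTCD (0.913) and S100A2 (0.903), and JAG2 with MYORG (0.901) and SCAMP2 (0.898).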

How the data were processed

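RNA-seq counts of 24 libraries in 8 groups were used, and the ATAC-seq samples of the series were left out. Per the labels and the study's methods, Trimmomatic-trimmed reads were placed on GRCh38 by STAR in a 2-pass run, and featureCounts 2.0.0 assigned fragments to GENCODE release 38 exons, with a mapping quality of at least 30 and without using strand. The values deposited by the authors are raw counts per gene, not normalized. Symbols covered 60463 genes (99.6%). The members and lists were chosen with earlier results of these data known.

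Fits used edgeR 4.0.16 in R 4.3.3 (filterByExpr, TMM, quasi-likelihood test, Benjamini-Hochberg adjustment over all genes tested), with the 6 libraries of a comparison or the 12 sphere libraries for the interaction. A call is an adjusted p under 0.05, and intervals are at 95%. CPM were TMM-scaled within the sphere libraries, WT with SLUG KO, or the siRNA libraries, and CPM per kb over all 24. The siRNA libraries, of another batch, were tested only against each other. The scripts were tested on simulated data. Named are the 10 genes, up to 3 other pathway genes per direction and comparison (smallest adjusted p with an absolute log2 fold change over 1), the targeted genes and HRAS, markers, and the 2 genes most like each member (1 of them is not reported here). Alternatives were DESeq2 1.42.0, edgeR with DESeq2's size factors, all genes unfiltered, a minimum of 10 counts per library, a replicate block, 1 fit of the 12 sphere libraries, flow cell as a term, and leaving out each library. Replicates differed by more than sampling noise (chi-square per gene of at least 1.88), so none was merged. Where replicates share a culture, p-values measure technical spread.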

Additional observations from a re-analysis of the deposited data

Results flagged for a closer look

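The response to TGFβ differed between MI- and MII-spheres, by the interaction term over 12 libraries, for 4 of the 10 Notch genes. Over all 18591 genes tested, 12.6% had a higher and 9.75% a lower response in MII-spheres. Of 55 other pathway genes tested, 9 had a higher and 4 a lower response, and 2 of them are named by rule. On the log2 scale (MII minus MI) the difference was 1.46 for JAG2 (adjusted p = 7.81e-11), which fell in MI- and rose in MII-spheres, and 2.38 for DLL1 (adjusted p = 0.00135), which fell in MI-spheres at 5 to 52 counts per library. It was 1.76 for DNER (adjusted p = 8.06e-07), 0.19 for HES1 (adjusted p = 0.0329), 1.30 for HES4 (adjusted p = 2.21e-06) and -1.16 for DTX1 (adjusted p = 0.0343). HES1 passed under 4 of 17 alternatives only. DTX1 was at 0.494 ± 0.0270 CPM after and 0.226 ± 0.0667 CPM before TGFβ in MI-spheres, against 19.6 ± 1.89 and 19.9 ± 0.326 CPM in MII-spheres. Its call was lost under 6 of 16 alternatives, among them without MI Ctrl replicate 1 (-1.06, adjusted p = 0.114). Groups of 3 libraries are too small for the test of single outlying libraries used here, which needs at least 4.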

How the results depend on the processing

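Of 735 values of the 10 genes recomputed under the alternatives, 658 kept their direction and side of the threshold, 35 no longer passed, 19 newly passed and 23 changed sign. No value that passed with all libraries changed sign. Of 185 values of other named genes, 173 held and 12 no longer passed. Without WT replicate 2, NOTCH1 (0.39, adjusted p = 0.00724) and JAG2 (0.54, adjusted p = 0.00575) passed in SLUG KO with the changed sign, and no other value with a changed sign passed. With at least 10 counts in every library, DLL1 in MII-spheres after TGFβ was -0.017. In SLUG KO, JAG2 was 0.0075 with DESeq2, 0.040 with no low-count filter and 0.084 with the replicate block. After SMAD silencing with flow cell as a term, DLL1 was 0.37 and NRARP 0.060. Leaving out 1 library each gave, in MII-spheres after TGFβ, ranges of -0.128 to 0.0093 for NOTCH1 and -0.198 to 0.231 for DLL1. In SLUG KO the ranges were -0.982 to 0.387 for NOTCH1, -0.663 to 0.618 for NOTCH3 and -0.260 to 0.535 for JAG2, each highest without WT replicate 2, and -0.0125 to 0.247 for NOTCH2 and -0.0447 to 0.577 for NRARP, lowest without WT replicate 3. After SMAD silencing they were -0.0255 to 0.0128 for NOTCH2, -0.369 to 0.0823 for DLL1 and -0.115 to 0.0656 for NRARP. The causes were not tested.

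Leaving out 1 library each, 3 to 7 of the 10 genes passed in the interaction, and 3640 to 4750 of all genes. Both counts were highest without MI TGFβ replicate 3. In SLUG KO, 0 to 4 of the 10 genes passed, 0 to 24 of all 74 Notch pathway genes (5 with DESeq2 and 6 with no low-count filter, against 3), and 133 to 5592 of all genes, with 5592 without WT replicate 2. The count over all genes was 581, and it was 1204 with DESeq2, 973 with no low-count filter and 260 with at least 10 counts in every library. The replicate numbers did not pair the libraries (correlations of deviations from -0.185 to 0.0517). With the replicate block, 255 genes and 0 of the 10 passed in SLUG KO (JAG1 -1.01, adjusted p = 0.117), HEY1 in MI-spheres no longer passed (0.68, adjusted p = 0.0551) and NOTCH2 passed in the interaction (0.19, adjusted p = 0.0330). The block left 9833, 9132, 11297, 4273 and 6308 genes called after TGFβ in MI- and MII-spheres, between the lines, in the interaction and after SMAD silencing. Levels per kb moved by more than 1 SD in 7 of 80 with DESeq2 size factors and in 14 of 80 without scaling factors. DLL1 and HEY1, with under 100 counts in many libraries, limit what can be said of them at this depth.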
